A study of Homo sapiens with 96 samples.

Results

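The effect of MS023 on exon choice was compared between 7 and 4 days of treatment in A549 cells, a human lung adenocarcinoma line. MS023 inhibits Type I protein arginine methyltransferases, and the comparison asked whether its effect on an exon event had the same size and direction at the later time. An exon event is a place where transcripts of a gene differ by a skipped exon (SE), a choice between mutually exclusive exons (MXE), or an alternative 3′ or 5′ splice site (A3SS, A5SS). Events were members if they had identical type and coordinates in both MS023 tables, which held for 89160 of the 201882 exon events listed in any table used here. Of these, 75888 had at least 10 reads in each of 12 libraries and were tested, namely 55589 SE, 11276 MXE, 5451 A3SS and 3572 A5SS.

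Poly(A) RNA was sequenced from cells given 1 µM MS023 or 0.01% DMSO for 4 days and from cells given the same for 7 days, with 3 libraries in each of the 4 groups. GSK591, an inhibitor of the Type II enzyme PRMT5, was given at 1 µM for 4 and 7 days and served for comparison. The labels do not say whether replicates came from separate cultures, so the spread between libraries may be technical. P-values and SEs of the quasi-binomial model used below rest on a spread pooled over all events, not on that of each event. Libraries are called a, b and c by their order in the tables. The labels of the 7-day DMSO samples name no table, and the control columns of the 7-day tables, which carry a code, were read as these samples because the labels of the 7-day inhibitor samples name those tables. Every 7-day value of DMSO rests on that reading. Each day had its own DMSO group, so the 4-day and 7-day effects shared no library, and a difference common to both arms of a day cancelled. Day of treatment and any other difference between the 4-day and 7-day libraries that acted on one arm cannot be told apart.

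Reads on tested events numbered between 52963689 and 71304655 per library, with a read counted in each event that it overlapped. The 7-day libraries were shallower, at most 56058681 reads, than the 4-day libraries, which had at least 63838588. Pairs of libraries of a group differed by more than sampling noise, with a chi-square per degree of freedom of 2.02 to 2.46 at 4 days and 1.59 to 1.81 at 7 days, so no library was counted as a copy of another. Of the epithelial markers KRT7, KRT8, KRT18, KRT19 and EPCAM, KRT7 and KRT8 had exon events listed in both tables, with at least 223319 and 261042 reads per library. The tables hold splicing events and not expression, so markers without such events could not be checked.

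Arginine methylation is dense on RNA-binding proteins, above all in arginine- and glycine-rich stretches of hnRNPs and related factors. Type I enzymes place asymmetric dimethylarginine, and PRMT5 places symmetric dimethylarginine on Sm proteins of the spliceosome. Exon choice depends on how strongly such factors mark an exon against its neighbours. Inclusion is given as Ψ, the share of transcripts with the exon or the longer form after correction for the length that reads can cover. For MXE, Ψ is the share of the exon that comes first in transcript order, by the documented convention of the software that counted the events. Reads on the target were counted too, so where transcripts hold both exons this Ψ gives their relative reads and not a choice. Whether the exons of each MXE exclude each other in these cells was not tested. ΔΨ is MS023 minus DMSO at one day.

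Events called at one day mostly had the same direction at the other, while fewer were called at both. At 4 days 3573 events differed from DMSO (4.71% of those tested), of which 1327 had higher and 2246 lower inclusion with MS023. At 7 days 2581 events differed (3.4%), with 1120 higher and 1461 lower. Both lists held 1318 events, and 1288 of them moved the same way at both days while 30 moved in opposite ways. The calls came from a quasi-binomial model of inclusion and skipping reads with Benjamini-Hochberg adjustment over all 75888 events. With every library thinned to the depth of the shallowest, 2824 events were called at 4 days and 2834 at 7 days. A model of the 6 libraries of each day alone called 2728 at 4 days and 3336 at 7 days. The counts of calls therefore do not rank the days.

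Effects seen at one day were carried into libraries of the other day at a smaller size. Of the events called at 4 days, 89.2% had the same sign at 7 days, beside 59.3% of all tested events. Their median absolute ΔΨ was 0.0730 in the 4-day libraries and 0.0396 in the 7-day libraries. In the reverse direction, 91.6% of the events called at 7 days had the same sign at 4 days, with a median absolute ΔΨ of 0.0798 at 7 days and 0.0468 at 4 days. Over all types and directions the shrinkage was alike both ways. An effect chosen for its size in some libraries is overstated there, so these pooled medians do not show a weaker effect at either day. Within SE and MXE the shrinkage was not alike. The median ratio of the other day's log2 odds effect to that of the calling day differed by direction. From 4 to 7 days it was 0.80 for higher and 0.62 for lower SE, and from 7 to 4 days 0.57 and 0.82. For higher and lower MXE it was 0.31 and 0.71 from 4 to 7 days, and 0.72 and 0.34 from 7 to 4. These ratios were not tested. Among the 1318 events called at both days the median absolute ΔΨ was 0.0863 and 0.0899 at the earlier and later time. By event type the share with the same sign at 7 days was 91.4% of 2657 SE, 89.3% of 215 A3SS, 90.4% of 197 A5SS and 77.2% of 504 MXE called at 4 days.

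**Figure D1:**
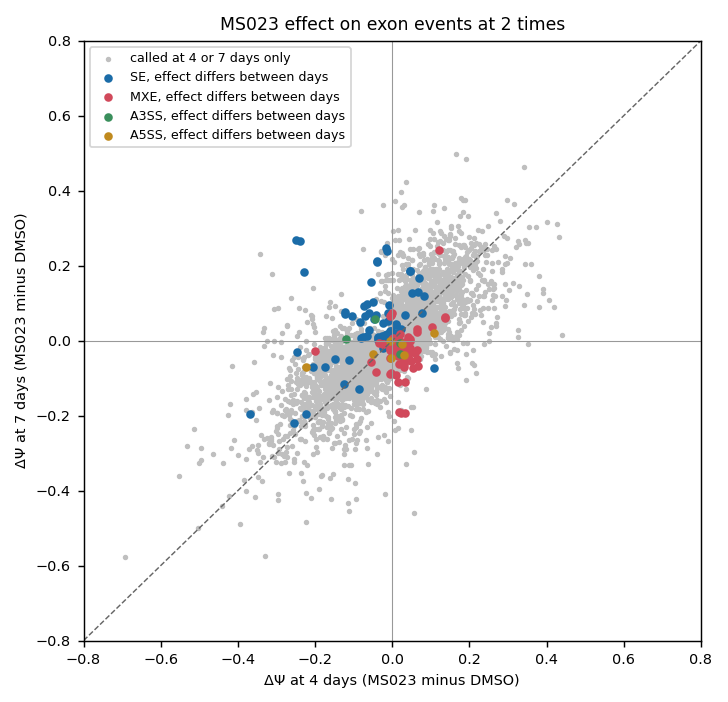
ΔΨ at 4 days (x axis) against ΔΨ at 7 days (y axis) for exon events called at either day (grey) and for the 187 events whose effect differed between days under one dispersion prior (coloured by type). The dashed line marks equal effects. Most grey points have the same sign at both days. Of the 187 coloured points, which were chosen by their difference between days, 131 have ΔΨ of opposite sign at the 2 days.

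Of the 6 largest 4-day effects, all had the same sign at 7 days and 4 passed the test there. In PLEC, which encodes the cytoskeletal linker plectin, Ψ of a coding exon was 0.711, 0.706 and 0.710 with DMSO at 4 days and 0.220, 0.206 and 0.195 with MS023. In the 7-day libraries it was 0.769, 0.723 and 0.755 with DMSO and 0.240, 0.272 and 0.238 with MS023. The groups did not overlap at either day, ΔΨ was -0.502 and -0.499, and the difference between them was 0.003 ± 0.033 (SD propagated over 4 groups of n = 3). NUMA1, which encodes a protein of the mitotic spindle pole, had a 42-base exon with ΔΨ of -0.693 and -0.577 at the earlier and later time. In RAB11FIP3, an effector of endosomal recycling, ΔΨ was -0.495 and -0.319, and in WIPI1, an autophagy protein, it was -0.440 at both days. PGAP2, which acts on lipid anchors of membrane proteins, had ΔΨ of -0.426 and -0.199, where the latter did not pass (adjusted p = 0.133, quasi-binomial model). In BRF1, a subunit of the RNA polymerase III initiation factor, an alternative 5′ splice site had ΔΨ of -0.439 and -0.327, where the latter did not pass (adjusted p = 0.0703, quasi-binomial model). None of these 6 events passed the test of a difference between days, where adjusted p ranged up to 1 for PLEC and was lowest for RAB11FIP3 at 0.365 in the quasi-binomial model.

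A difference between the 7-day and the 4-day effect was called for 187 events in 129 genes (0.246% of those tested), and this count depended on how the spread between libraries was modelled. Inclusion of 80 events was higher and of 107 lower in the 7-day effect, and they comprised 66 SE, 110 MXE, 4 A3SS and 7 A5SS. The model moderated the dispersion, the excess of the spread between libraries over sampling noise, toward one prior for all events. That prior was so strong that every event received the same value of 1.88. The called events had a median dispersion of their own of 6.26, reaching 206, and 163 of the 187 lay above the common value. For these 163 the p-values and SEs of the model took a smaller spread than their own libraries showed. With each event's own dispersion 0 events were called, as with limma on log2 odds, and limma on Ψ called 1. With own dispersion 2984 events (3.93%) had an unadjusted p under 0.05, and with limma on log2 odds 4520 (5.96%). A share near 0.05 is expected without any difference. After these counts had been seen, 4 other priors were fitted. A robust prior without a trend called 106 events, a trend with the information in the reads called 63, or 55 when robust, and a prior set within bins of that information called 6. None of the 187 was called with its own dispersion, so events named below are given with their adjusted p under bins and, for some, under the robust trend. With one prior 5306 events (6.99%) had an unadjusted p under 0.05.

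**Figure D2:**
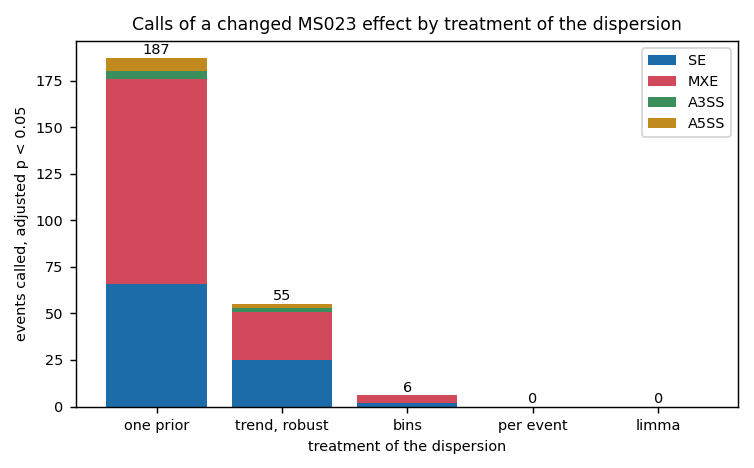
Number of exon events called as differing between the 7-day and 4-day MS023 effects (y axis, adjusted p under 0.05), stacked by event type, under 5 treatments of the dispersion (x axis). The count fell from 187 with one prior to 55 with a robust trend, 6 with bins and 0 with per-event dispersion or limma.

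The count also rested on single libraries. Leaving out DMSO 7 days library a, b or c gave 104, 106 and 286 calls, leaving out DMSO 4 days library b gave 106, and leaving out MS023 7 days library a gave 123. Without MXE 66 events were called, of which 58 had higher inclusion in the 7-day effect.

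Skipped exons were called almost always in one direction. Of the 66 SE calls, 64 had a higher value at 7 days, and in 41 the mean Ψ with MS023 was below that of DMSO at 4 days and above it at 7 days. Their median ΔΨ was -0.0358 in the 4-day and 0.0361 in the 7-day libraries. The exons were chosen by this difference in the same libraries, so these values alone do not show a reversal of the effect. Of the 66, 18 were called at both days. Over all tested SE, 2 were called at both days with opposite signs. The median change between days was larger in the arm read as DMSO. In DMSO cells Ψ fell from 4 to 7 days in 64 of the 66 exons, with a median change of -0.0842, and 60 of the 66 passed the test of DMSO at 7 against 4 days. In MS023 cells the median change was -0.000304, and 22 passed. Over all SE tested, DMSO at 7 days differed from DMSO at 4 days in 1764 events, of which 1429 were lower. MS023 at 7 days differed from MS023 at 4 days in 786, of which 543 were lower. Both arms enter the contrast that chose the 66 exons, so their changes in those exons are description only.

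**Figure D3:**
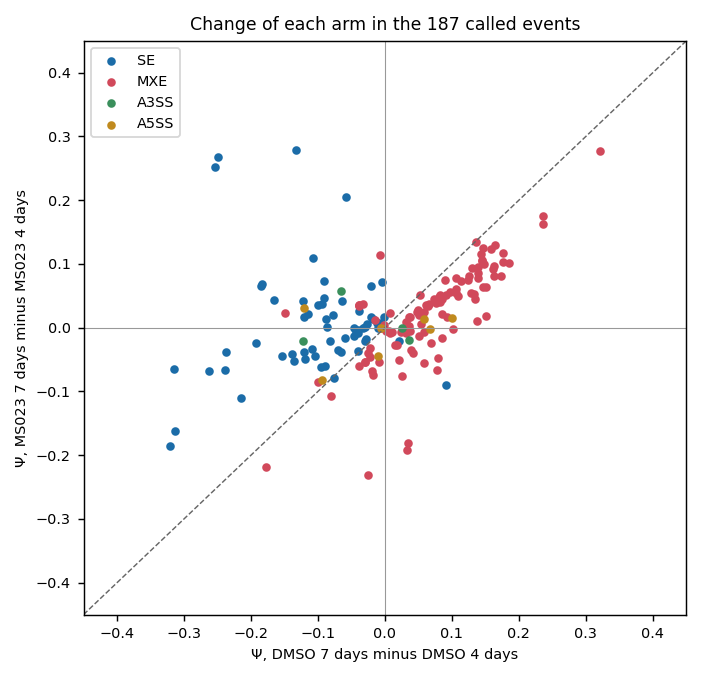
Change in Ψ from 4 to 7 days in DMSO cells (x axis) against the change in MS023 cells (y axis) for the 187 called events, coloured by type. The dashed line marks equal change, and SE lie mostly left of 0 while most MXE lie right of it and below the line.

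Mutually exclusive exons were called in the other direction, with 99 of 110 lower in the 7-day effect. The 110 calls lay in 72 genes, with several each in AKR1C2 and RPLP0. Pairs of a gene can overlap and share reads, so the calls are not of independent sites. The called MXE were in abundant transcripts, with a median of 12604 reads per library against 286 for all MXE tested, and their median own dispersion was 11.3. Between DMSO at 7 and at 4 days 22.6% of all tested MXE differed, against 3.17% of SE. Between MS023 at 7 and at 4 days 17.6% of MXE and 1.41% of SE differed. Over all MXE, the median difference between the ΔΨ of 7 and 4 days was -0.00663 (exact two-sided permutation test of labels within day over 400 relabellings, p = 0.03). The same median was 0.000665 for SE (exact permutation p = 0.075), 0.000131 for A3SS (exact permutation p = 0.805) and -5.11e-05 for A5SS (exact permutation p = 0.85). Adjusted over the 4 types by Benjamini-Hochberg, these exact permutation p-values were 0.12 for MXE, 0.15 for SE and 0.85 for both others, and 0.005 was the smallest p that the 400 relabellings can give. Relabelling within a day takes MS023 to be without effect at both days, so these p-values do not test for equal effects at the 2 days. The MXE value had an exact permutation p of 0.05 to 0.06 without DMSO 4 days library b, MS023 4 days library a or MS023 7 days library a or b, while the SE value had an exact permutation p of 0.025 to 0.045 without any 1 of the MS023 7 days libraries.

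The sequences at the ends of 4 of the skipped exons are shown because, among the 12 skipped exons with the largest differences, 3 of them kept their call in every run that left out a library and the other had the largest difference. Each line gives 20 bases of intron and 3 of exon at the 3′ splice site, or 3 bases of exon and 6 of intron at the 5′ splice site, in the direction of transcription, with exon bases in capitals.
NFIB exon, 3′ splice site: attctgtttttgttttgtagCCT
NFIB exon, 5′ splice site: CCAgtaagt
EPB41L1 exon, 3′ splice site: ttgattttatctggccatagAGA
EPB41L1 exon, 5′ splice site: GAGgtacag
BCL2L12 exon, 3′ splice site: tctgaagtcctcctctccagAAG
BCL2L12 exon, 5′ splice site: CTGgtaaga
MPRIP exon, 3′ splice site: tctgctctctcctctgacagTCC
MPRIP exon, 5′ splice site: GAGgtaaac
They were read from GRCh37, the assembly of hg19, on which 99.9% of tested exons begin after AG and 98.4% end before GT. All 66 called exons had both, with a median length of 113 bases against 118 for all tested exons, and 39.4% against 41.7% had a length divisible by 3. Called exons were intermediate in inclusion, with a median Ψ of 0.607 in DMSO at 4 days against 0.985 for all tested. That median was 0.860 for exons called at 4 days and 0.780 for those called at 7 days. Called exons also had more reads, a median of 969 per library against 224. Ψ and reads of these libraries entered the test, so neither is a separate trait of the called exons.

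EPB41L1, which encodes a protein that links membrane proteins to the actin and spectrin cytoskeleton, had the most even replicates of the 12 exons with the largest differences. The 411-base coding exon lies on the plus strand at chr20:34797410-34797820. Ψ was 0.618, 0.599 and 0.611 with DMSO and 0.251, 0.234 and 0.240 with MS023 at 4 days. At 7 days it was 0.375, 0.353 and 0.382 with DMSO and 0.185, 0.162 and 0.176 with MS023. MS023 lowered inclusion at both days without overlap, and less so at 7 days, with a difference between the ΔΨ of 0.173 ± 0.023. On the log2 odds scale it was 0.82 (SE 0.17, quasi-binomial adjusted p = 0.000697). Adjusted p was 0.021 under the robust trend and 0.078 under bins. DMSO cells themselves fell from a mean of 0.609 to 0.370 between the days.

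BCL2L12, a gene of the BCL2 family, had a 143-base coding exon at chr19:50170276-50170418 on the plus strand. Ψ was 0.765, 0.777 and 0.771 with DMSO and 0.661, 0.694 and 0.645 with MS023 at 4 days, and the groups did not overlap. At 7 days it was 0.541, 0.579 and 0.614 with DMSO and 0.660, 0.654 and 0.615 with MS023, in the other order, with the nearest libraries of the groups at 0.614 and 0.615, and the 7-day effect did not pass on its own (adjusted p = 0.0998, quasi-binomial model). The difference was 1.14 on the log2 odds scale (SE 0.20, quasi-binomial adjusted p = 1.06e-05), with adjusted p = 0.000719 under the robust trend and 0.045 under bins. MPRIP encodes a protein that binds myosin phosphatase and RhoA, and 30 bases of its 63-base exon at chr17:17083921-17083983 are annotated as coding. MS023 lowered its Ψ from 0.710 ± 0.026 to 0.636 ± 0.003 at 4 days (SD, n = 3). At 7 days Ψ was 0.618 ± 0.047 with DMSO and 0.710 ± 0.035 with MS023, where the groups overlapped, and adjusted p was 5.26e-07 with one prior and 0.048 under bins in the quasi-binomial model.

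Among called events with at least 20 reads in each library, 1 per gene, the largest difference in Ψ was in NFIB, which encodes a transcription factor of lung development, for a 166-base coding exon on the minus strand at chr9:14116180-14116345. Ψ was 0.584, 0.630 and 0.601 with DMSO and 0.302, 0.403 and 0.394 with MS023 at 4 days. At 7 days it was 0.286, 0.262 and 0.503 with DMSO and 0.627, 0.608 and 0.617 with MS023. The order of the groups was the opposite at 7 days, without overlap, although the 7-day effect did not pass on its own (adjusted p = 0.0985, quasi-binomial model), and DMSO library c stood apart from a and b at 7 days. At least 22 reads lay behind each value, the log2 odds difference was 2.92 (SE 0.67, quasi-binomial adjusted p = 0.00343), and adjusted p was 0.072 under bins. The call was lost without DMSO 7 days library a or b or MS023 7 days library a.

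**Figure D4:**
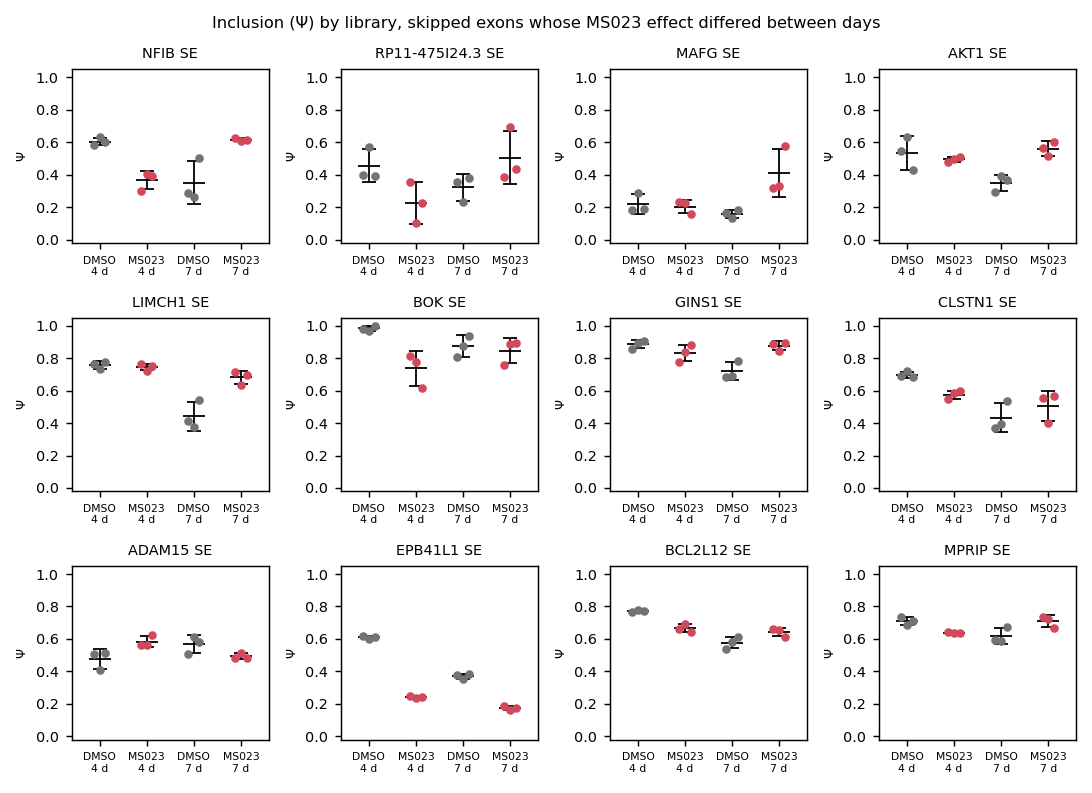
Ψ of each library (points), with the mean and SD of 3 libraries (black), for the 12 named skipped exons with the largest differences between the 7-day and 4-day effects (y axis 0 to 1, groups on the x axis, DMSO grey and MS023 red). In NFIB the MS023 points lie below DMSO at 4 days and above it at 7 days, and in EPB41L1 they lie below at both.

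In 4 exons the 4-day groups overlapped and MS023 libraries lay above DMSO at 7 days. AKT1 encodes a kinase of growth factor signalling, and the exon, without annotated coding bases, had ΔΨ of -0.040 at 4 days and 0.211 at 7 days. MAFG, a small MAF transcription factor, had -0.015 and 0.248, LIMCH1, an actomyosin regulator, -0.013 and 0.238, and GINS1, a subunit of the replicative helicase, -0.054 and 0.156. Their adjusted p under bins was 0.13 to 0.27, so none was called there. In AKT1 DMSO fell from 0.536 ± 0.104 to 0.350 ± 0.051 while MS023 cells had 0.496 ± 0.016 and 0.561 ± 0.045. LIMCH1 fell in DMSO from 0.758 to 0.443, and in MAFG MS023 rose from 0.204 to 0.409, where 7-day library c alone was at 0.579.

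In the other named exons the groups were separated at 4 days. CLSTN1, a calsyntenin, had ΔΨ of -0.122 and 0.072, and BOK, of the BCL2 family, -0.246 and -0.029. ADAM15, a membrane metalloprotease, was the 1 of these 12 exons with a lower effect at 7 days, from 0.107 to -0.074. The exon of RP11-475I24.3 had -0.228 and 0.183 with replicate SDs up to 0.165; whether its reads are shared with similar genes was not tested. Under bins adjusted p was 0.21 to 0.36 for these 4. At 7 days the groups of CLSTN1, BOK and ADAM15 overlapped. The 7-day effect did not pass on its own in any of the 4 (adjusted p of 0.245 to 0.777, quasi-binomial model).

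TPP1, a lysosomal peptidase, had the smallest adjusted p among the named events, for a pair of coding exons on the minus strand at chr11:6637892-6638090 and chr11:6637546-6637734, of which the former comes first in the transcript. Ψ was 0.514, 0.540 and 0.496 with DMSO and 0.512, 0.588 and 0.549 with MS023 at 4 days, where the groups overlapped. At 7 days it was 0.548, 0.582 and 0.521 with DMSO and 0.332, 0.364 and 0.377 with MS023, which lay below every DMSO library. The difference was -1.33 on the log2 odds scale (SE 0.18, quasi-binomial adjusted p = 1.76e-10), with adjusted p = 0.0035 under bins. QSER1, a chromatin protein, had the same pattern, with ΔΨ of 0.016 and -0.190 and adjusted p = 0.03 under bins. In SPATS2L ΔΨ was 0.032 and -0.112, and in JPX, a long noncoding RNA that acts on X inactivation, -0.200 and -0.028. For both the call was lost under bins, with adjusted p of 0.38 and 0.29.

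Few alternative splice sites passed the rule on size. In MAN2C1, an alpha-mannosidase, the longer form by a 3′ splice site had ΔΨ of -0.119 at 4 days and 0.004 at 7 days. RPS9, a ribosomal protein with processed copies in the genome, whose share in its reads was not tested, had -0.044 and 0.058. NUBP2, which acts in cytosolic iron-sulphur cluster assembly, had -0.223 and -0.071 by a 5′ splice site. Adjusted p under bins was 0.21 to 0.28 for these 3.

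**Figure D5:**
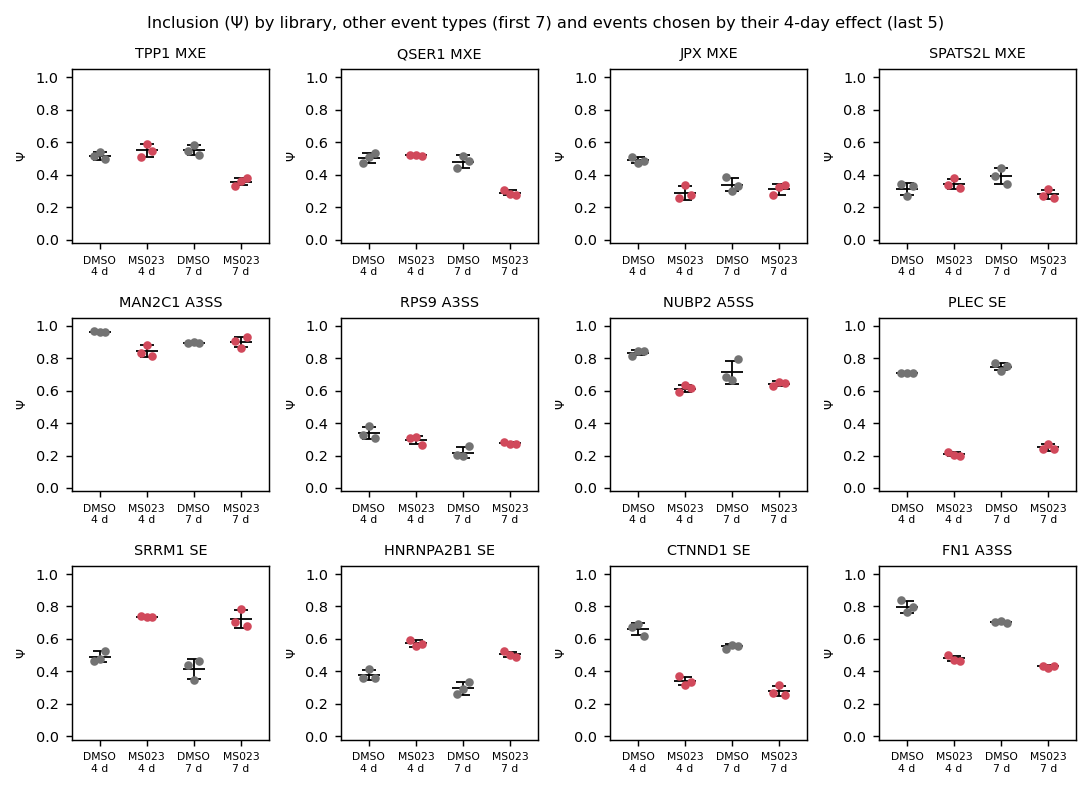
Ψ of each library (points), with the mean and SD of 3 libraries (black), for the 7 named MXE, A3SS and A5SS events and for 5 events chosen by their 4-day effect (PLEC, SRRM1, HNRNPA2B1, CTNND1 and FN1). TPP1 and QSER1 are low with MS023 at 7 days alone, and in PLEC MS023 lies far below DMSO at both days.

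Lists of RNA-processing genes held 4-day effects in 5.16% to 10.1% of their tested events, beside 4.71% of all, and differences between days in at most 2 events a list. Events of a gene overlap and share reads, so the counts are not of independent sites. Over all tested events 0.246% were called between days, and 89.2% of the 4-day calls had the same sign at 7 days. Of 430 tested events of hnRNP, FET and related genes, 41 differed at 4 days (19 higher, 22 lower), and 38 of these had the same sign at 7 days, with 2 called between days (0.465%). For SR proteins and their kinases the values were 14 of 138 events at 4 days, 13 of the same sign and 1 between days (0.725%). For other regulators of exon choice they were 31 of 393, 30 and 1, and for Sm proteins and snRNP components 16 of 310, 15 and 0. The arginine methyltransferases and their partners had 8 of 94 at 4 days, 8 of the same sign and 0 between days. Median log2 odds differences between days were 0.15 for SR proteins, -0.04 for hnRNPs and 0.02 over all tested events. SRSF5, an SR protein, was called between days for an alternative 3′ splice site with ΔΨ of 0.021 and -0.035, and its adjusted p was 3.1e-05 with one prior, 0.0077 under the robust trend and 0.23 under bins. PCBP2, which binds C-rich RNA, had ΔΨ of -0.011 and 0.073 for a 39-base exon, with adjusted p = 0.36 under bins. HNRNPH1 and HNRNPK had MXE differences of -0.32 and -0.70 on the log2 odds scale, with adjusted p of 0.66 and 0.39 under bins.

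Of the 10 examples of these lists, taken by their 4-day ΔΨ by a rule added after the values had been seen, 4 passed the test at 7 days, namely SRRM1, SRPK2, HNRNPA2B1 and U2AF1L4. A 42-base exon of SRRM1, a splicing coactivator, had ΔΨ of 0.249 and 0.306. SRPK2, a kinase of SR proteins, had 0.092 and 0.098, and HNRNPA2B1 had 0.195 and 0.209. In PRMT7 ΔΨ was 0.285 and 0.184, and in CARM1, a Type I enzyme, -0.104 and -0.054, and neither passed at 7 days (adjusted p of 0.205 and 0.403, quasi-binomial model). Others that did not pass at 7 days were SNRPD2 with 0.250 and 0.021 (SDs of 0.050 to 0.077) and LUC7L3 with 0.263 and 0.086 (SDs of up to 0.184). CELF1, with -0.219 and -0.040, and RBM3, with -0.207 and -0.136, did not pass at 7 days either, while U2AF1L4, a paralog of a U2AF subunit, had -0.133 and -0.136.

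Cytoskeleton and epithelial genes had the highest shares of 4-day effects among the lists, 13.0% and 12.3%, and apoptosis and DNA repair genes the lowest, 2.56% and 2.27%. Of 523 tested events of actin cytoskeleton and adhesion genes, 68 differed at 4 days and 63 of these had the same sign at 7 days, with 2 called between days. FN1, fibronectin, had ΔΨ of -0.320 and -0.274 for an alternative 3′ splice site. MYL6, a myosin light chain, was called between days at -1.63 on the log2 odds scale although its groups overlapped at both days and its own dispersion was 63.6, and the call was lost under bins and the robust trend, with adjusted p of 0.629 and 0.858. Epithelial and mesenchymal switch genes had 37 of 300 events at 4 days, 35 of the same sign, and 1 between days. CTNND1, which encodes p120 catenin, had -0.321 and -0.275. Apoptosis and p53 genes had 7 of 273 at 4 days, of which 2 had the same sign at 7 days, and 3 called between days (1.10%), all in BCL2L12. BID, a BH3-only protein, had ΔΨ of -0.201 and 0.022 with adjusted p = 0.27, and BAX 0.152 and 0.134. Cell division genes had 37 of 594 at 4 days, 35 of the same sign, and 1 between days, in PRC1, a spindle midzone protein, with ΔΨ of -0.014 and 0.017. The PRC1 call was lost under bins and the robust trend, with adjusted p of 0.268 and 0.133, and was kept in 2 of 12 runs that left out a library. MKI67, which encodes the proliferation antigen Ki-67, had ΔΨ of -0.295 and -0.425 for a 1080-base coding exon, with adjusted p = 0.448 for the difference in the quasi-binomial model. DNA repair genes had 23 of 1013, 22 and 0, where RECQL, a DNA helicase, had -0.207 and -0.172 and EXO1, an exonuclease, 0.196 and 0.107, which did not pass at 7 days (adjusted p = 0.283, quasi-binomial model). FGFR3, a growth factor receptor of the epithelial list, had -0.279 and -0.324.

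Of 6 genes taken from those the study examined, HNRNPH1, given above, was the 1 with an exon event called between days. Its groups overlapped at both days, and its own dispersion was 10.6. The paper followed retained introns of GAS5, ANKZF1, NOP2 and HNRNPH1, and CHTOP and SNRPB as proteins. The values here are of exon events, for each gene the one with the smallest p. Adjusted p was 0.383 for GAS5, 0.468 for ANKZF1, 0.825 for NOP2, 0.604 for CHTOP and 0.521 for SNRPB in the quasi-binomial model. In SNRPB, an Sm protein, ΔΨ was 0.028 and 0.003.

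With GSK591 the effect differed between 7 and 4 days in 1474 of 74514 tested events (1.98%), and 726 of 873 SE calls were higher at 7 days. This comparison shared its 6 DMSO libraries with that of MS023, so the values are side by side and no count of overlap is given. Within MS023 cells 2970 events (3.91%) differed between 7 and 4 days, and within DMSO cells 4649 (6.13%). The change from 4 to 7 days differed between MS023 and GSK591, with DMSO not involved, in 518 of 61776 events (0.839%), and was lower with MS023 in 254 of 328 SE. For MPRIP the GSK591 difference between days was 2.39 on the log2 odds scale against 1.06 for MS023, and the inhibitors differed (adjusted p = 3.4e-10, quasi-binomial model). For TPP1 they were -0.22 and -1.33 (adjusted p = 9.4e-05), and for AKT1 -0.55 and 1.44 (adjusted p = 9.9e-08). In EPB41L1 they were 0.65 and 0.82 (adjusted p = 0.86), and in BCL2L12 1.81 and 1.14 (adjusted p = 0.19). Against the shared DMSO libraries, the GSK591 difference was also called, with the sign of MS023, for other named events called for MS023. It was 2.90 for LIMCH1, 2.48 for CLSTN1, 2.57 for RP11-475I24.3, 1.13 for NUBP2, -0.78 for SRSF5, 0.46 for PCBP2 and -0.34 for HNRNPH1. Of these, LIMCH1 and CLSTN1 differed between the inhibitors (adjusted p of 0.014 and 0.00054, quasi-binomial model) and the others did not pass. For the rest with a value the GSK591 difference was not called, and in AKT1 and MYL6 its sign was the opposite. Beside AKT1 and TPP1, the rest held MAFG and MYL6 as events that differed between the inhibitors (adjusted p of 0.017 and 1.2e-09, quasi-binomial model).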

How the data were processed

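Poly(A) RNA libraries of A549 cells were trimmed and aligned to hg19 by the authors (Trim Galore 0.6.5 and STAR 2.4.2a per the submitters' processing notes), and rMATS 4.0.2 counted inclusion and skipping reads, junction reads and reads on the target. The deposited tables hold these counts, with 3 libraries in one cell in the authors' order and no replicate number. They also hold the authors' p-values and differences, which were not used. Events were matched by type and coordinates. A logistic model with groups of day and treatment was fitted to each event with at least 10 reads in every one of 12 libraries. The dispersion was moderated with squeezeVar (limma 3.58.1 in R 4.3.3) with one prior as designed, which gave every event the value 1.88, with a floor of 1. F tests were adjusted by Benjamini-Hochberg over all 4 types. Printed log2 odds add 0.5 to each count.

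The count of calls between days depended on the model, with 187 calls as designed and 0 with per-event dispersion or limma on log2 odds. After the calls of the designed model had been seen, 4 other priors (within bins, a trend robust and not, and robust without a trend), a filter of 5 reads of the rarer form and a fit without MXE were added, and the priors called 6, 55, 63 and 106. The bins were considered as the main model at one stage, after their count was known, and the designed model was kept.

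Named events followed a rule: events called between days with at least 20 reads in each library and a difference of ΔΨ of at least 0.1, the first 12 SE and 4 of each other type, 1 per gene; at most 2 called genes per list; the 6 largest 4-day effects; and 6 genes of the study. At most 2 further examples per list, by their 4-day effect, were added after the values had been seen. The members and the 10 lists were chosen with earlier results of these data known. The model was run on simulated counts in which every event had the same dispersion, as the designed model takes it. That run could not show how the model treats dispersions that differ between events, as they did here. The values of 1 event that the rule picked are not reported here.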

Additional observations from a re-analysis of the deposited data

Results flagged for a closer look

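The 25 named events called between days had an MS023 effect that differed between the 7-day and 4-day groups by a test of the difference itself. In log2 odds of the 7-day minus the 4-day effect, the skipped exons had 2.92 (NFIB), 2.67 (RP11-475I24.3), 1.76 (MAFG), 1.44 (AKT1), 1.52 (LIMCH1), 3.77 (BOK), 2.07 (GINS1), 1.19 (CLSTN1), -1.06 (ADAM15), 0.82 (EPB41L1), 1.14 (BCL2L12), 1.06 (MPRIP), 0.48 (PCBP2) and 3.63 (PRC1). The MXE had -1.33 (TPP1), -1.25 (QSER1), 1.01 (JPX), -0.95 (SPATS2L), -0.32 (HNRNPH1) and -0.70 (HNRNPK). The alternative splice sites had 2.31 (MAN2C1), 0.77 (RPS9), 1.23 (NUBP2), -0.53 (SRSF5) and -1.63 (MYL6). The median difference of ΔΨ over MXE was -0.00663, with an exact permutation p of 0.03 that did not pass after adjustment over the 4 types (0.12). That permutation took MS023 to be without effect at both days, so it did not test for equal effects. Of the 25 events, 13 were called under the robust trend, 4 under bins (BCL2L12, MPRIP, TPP1 and QSER1) and 0 with per-event dispersion, and 7 kept their call in every run that left out a library.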

How the results depend on the processing

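The difference between the days was called for 187 events with the designed model. It was called for 0 with limma on log2 odds, 1 with limma on Ψ, 0 with per-event dispersion, and, in settings chosen after seeing the data, 6 with bins, 55 with a robust trend, 63 with a trend, 106 with a robust prior, 71 with 5 reads of the rarer form and 66 without MXE. Under limma on log2 odds, limma on Ψ and per-event dispersion in turn, the 4-day effect gave 436, 934 and 512 calls, the 7-day effect 279, 1096 and 302, MS023 between days 0, 1562 and 804, DMSO between days 12, 2336 and 1543, GSK591 0, 231 and 1, and MS023 against GSK591 0, 132 and 0. Bins gave 809 for GSK591 and 310 for MS023 against GSK591, and leaving out MXE gave 697 for MS023 and 1769 for DMSO between days. Leaving out a library gave 104 to 286 for the difference between days, 2712 to 3492 at 4 days, 1709 to 2775 at 7 days, 2206 to 3145 and 3263 to 4749 for MS023 and DMSO between days, 981 to 1484 for GSK591 and 413 to 545 for MS023 against GSK591. The medians ranged from 0.00046 to 0.000927 (SE), -0.00723 to -0.00513 (MXE), -7.92e-05 to 0.000229 (A3SS) and -0.0003 to -1.41e-05 (A5SS). Read minimums, the floor of the dispersion, adjustment within types, one event per segment and thinning kept the count of calls between days within 1.5 times; the cause of the other changes was not tested beyond the dispersions given. The planned edgeR fit was not run because the tables hold several libraries in a cell. No paired analysis was possible because the columns carry no replicate numbers. The median SE of the difference was 1.58 on the log2 odds scale, and differences of up to several SE were not detectable.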
